A study of Homo sapiens with 12 samples.

Results

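NGFR, the low-affinity p75 neurotrophin receptor, was followed together with 5 genes of the same ligand and receptor system, NTRK2, NTRK3, BDNF, NTF3 and SORT1. These 6 genes, of 60668 in the count table, were taken by symbol. The set was chosen from measured values, since NGFR had the largest fall after FOSL1 knockdown, so the values of its members in that comparison are given as a description without a test. RNA-seq libraries came from 4 groups of 3. PANC-1, a pancreatic adenocarcinoma line, carried an shRNA against FOSL1 (shFOSL1) or a scrambled shRNA (scramble), and H1299, labelled as lung adenocarcinoma cells, carried an shRNA against HDAC2 (shHDAC2) or a scrambled shRNA. FOSL1 encodes an AP-1 transcription factor subunit and HDAC2 a class I histone deacetylase. The study's methods describe exposure of both lines to virus with shRNA against FOSL1 and selection with puromycin. They do not describe an shRNA against HDAC2. No group was without an shRNA, and the labels name a single shRNA for each target. An effect of the target and any other effect of that shRNA therefore cannot be told apart.

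Neurotrophins are secreted growth factors, best known for the survival and growth of neurons. Each mature ligand binds a preferred Trk receptor tyrosine kinase, BDNF and neurotrophin-4 (NTF4) binding TrkB (NTRK2), and neurotrophin-3 (NTF3) binding TrkC (NTRK3). Neurotrophins also bind p75, a member of the TNF receptor superfamily with a death domain, which pairs with sortilin (SORT1) to bind the uncleaved precursors. In pancreatic cancer this system is known for its part in the growth of tumour cells along nerves.

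The FOSL1 and scramble targets are shown because the FOSL1 comparison rests on them, and the HDAC2 target was not analysed here. They were printed 5′ to 3′ from the study's list of shRNAs, with no capitals because no stretch was singled out.
FOSL1-shRNA: gagctgcagtggatggtac
Scramble: cgtacgcggaatacttcga
The FOSL1 target of 19 bases matched transcripts of 2 genes exactly, FOSL1 and its pseudogene FOSL1P1. Its longest run shared with a transcript of NGFR was 9 bases, with SORT1 9 bases and with BDNF 10 bases. The scrambled target matched transcripts of 0 genes. The labels number the FOSL1 shRNA as sh2 and the list holds a single FOSL1 sequence, so that the printed target is the one used rests on that list.

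Promoter windows of RefSeq (GRCh38.p14, 250 bases before to 50 after a start) were read for 5 of the 6 genes. The 14 windows belonged to NTRK2 (4), NTRK3 (1), BDNF (5), NTF3 (2) and SORT1 (2). Each was searched on both strands for the AP-1 site TGANTCA, the CRE site TGACGTCA, the GC box GGGCGG and the TATA box TATAAA, which do not overlap in these windows. SORT1 and BDNF are printed because they were the members other than NGFR with more than a trace of RNA, with GC boxes of either strand in capitals.
SORT1 promoter 1: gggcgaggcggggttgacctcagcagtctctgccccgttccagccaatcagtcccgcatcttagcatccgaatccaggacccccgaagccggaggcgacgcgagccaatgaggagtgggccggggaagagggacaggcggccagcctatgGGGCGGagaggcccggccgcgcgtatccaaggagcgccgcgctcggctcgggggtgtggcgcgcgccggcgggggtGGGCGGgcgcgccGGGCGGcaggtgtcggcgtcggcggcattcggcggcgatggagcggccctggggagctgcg
BDNF promoter 1: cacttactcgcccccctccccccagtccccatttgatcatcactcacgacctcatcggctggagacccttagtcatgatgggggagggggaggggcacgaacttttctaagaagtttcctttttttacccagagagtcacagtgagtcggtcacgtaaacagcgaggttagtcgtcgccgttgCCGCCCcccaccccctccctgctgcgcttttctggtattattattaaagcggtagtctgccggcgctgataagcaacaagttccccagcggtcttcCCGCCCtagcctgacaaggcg
The SORT1 window lay at chr1:109397869-109398168 on the minus strand and held GC boxes at positions -100, -24 and -11 from the start site. The BDNF window lay at chr11:27721981-27722280 on the minus strand and held them at -67 and 29. Of all 35116 promoter windows, 45% held a GC box, 7.71% an AP-1 site, 1.85% a CRE site and 11.5% a TATA box. Of the 14 windows, 0 held the AP-1, CRE or TATA letters. These are matches of letters in short windows and say nothing of binding.

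Total counts were 16065723 to 19173421 per library, and a count of 3, the limit that a count of 0 allows, was worth 0.152 to 0.18 CPM, the unit of counts scaled to the TMM-adjusted size of each library. Such limits cover counting error only. FOSL1 fell from 226 to 170 CPM in PANC-1 shFOSL1 (log2 fold change -0.43, SE 0.0617, edgeR adjusted p = 2.9e-06). HDAC2 fell from 178 to 74.6 CPM in H1299 shHDAC2 (-1.26, SE 0.0654, edgeR adjusted p = 5.4e-15). There was no overlap between groups in either case. FOSL1 stood higher in H1299 scramble, at 446 CPM, and rose to 590 CPM with shHDAC2 (0.40, SE 0.0579, edgeR adjusted p = 4.4e-06). HDAC2 did not pass the test in the FOSL1 comparison (0.05, SE 0.0666, edgeR adjusted p = 0.557). In both lines replicate 1 of scramble differed more from replicates 2 and 3 than these did from each other, and mitochondrially encoded genes took 12.6 to 13.3% of the counts of PANC-1 shFOSL1 against 6.99 to 7.29% in its scramble libraries. In PANC-1 all 7 epithelial markers reached 1 CPM, as did 3 of 5 duct markers, SOX9 at 252 CPM, KRT19 at 316 CPM and MUC1 at 16.7 CPM in scramble, while CFTR was near 0. In H1299 scramble 4 of the 7 epithelial markers reached 1 CPM, KRT8 at 280 CPM, KRT18 at 284 CPM, KRT7 at 3.83 CPM and CLDN4 at 5 CPM, while EPCAM, CDH1 and KRT19 were each under 1 CPM. NKX2-1, at 2.48 CPM, was the 1 of 5 lung adenocarcinoma markers to reach 1 CPM there. The sources do not say whether the replicates of a group were transduced separately, so p-values measure the spread between these libraries, which may be technical.

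NGFR was the receptor with the widest span. Its gene (ENSG00000064300.9) lies at chr17:49495293-49515008 on the plus strand of GRCh38, and the counts cover its exons. In PANC-1 scramble the counts were 1447, 1279 and 1185, or 77.6, 68.1 and 61.8 CPM. In PANC-1 shFOSL1 the counts were 48, 68 and 58, or 2.88, 3.99 and 3.27 CPM. The groups did not overlap, and the lowest scramble library stood far above the highest knockdown library. The means were 69.2 CPM ± 7.99 and 3.38 CPM ± 0.565 (SD, n = 3 each), a log2 fold change of -4.37 (SE 0.124, 95% interval -4.63 to -4.12), or 20.7-fold lower. Among the 11277 genes that averaged 5 CPM or more in PANC-1 this was the lowest fold change, which is how the set was chosen, and the next was the heat shock gene HSPA6 at -4.15. In bulk libraries, fewer cells with the RNA and less RNA per cell cannot be told apart.

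In H1299 the NGFR counts were 12, 18 and 16 in scramble and 12, 13 and 17 in shHDAC2. The levels, 0.826 CPM ± 0.18 and 0.79 CPM ± 0.092 (SD, n = 3 each), overlapped. All 6 H1299 libraries lay below the lowest PANC-1 shFOSL1 library, so the order of the groups was PANC-1 scramble, PANC-1 shFOSL1 and then both H1299 groups together. PANC-1 scramble stood 82.8-fold above H1299 scramble (log2 difference 6.37, SE 0.163), a value given without a test because the high level in PANC-1 scramble entered the choice of NGFR. The exons of NGFR share 4.88% of their bases with the antisense gene AC006487.1 (NGFR-AS1) and 22.3% with AC015656.1. Both had at most 6 counts in any library, and the strand setting of the counting was not given in the sources used here.

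NGFR was then placed among its relatives by level per kilobase of exon, a scale that adjusts for gene length. The length was that of all annotated exons, 4141 bases from 3 transcripts for NGFR but 29313 from 61 for its relative FAS. Ranks on this scale therefore depend on the annotation. Among 29 genes, NGFR and 28 of the TNF receptor superfamily, NGFR ranked 4 in PANC-1 scramble at 16.7 CPM per kb ± 1.93, behind TNFRSF12A (43.3), TNFRSF21 (36.4) and TNFRSF1A (29.4). In PANC-1 shFOSL1 it ranked 14 at 0.816 CPM per kb ± 0.137. In H1299 it ranked 19 in scramble at 0.199 CPM per kb ± 0.0435 and 18 in shHDAC2 at 0.191 CPM per kb ± 0.0222. Among all genes detected, 91% lay below NGFR per kb in PANC-1 scramble and 55.7% in PANC-1 shFOSL1, against 39.2% and 38.6% in H1299 scramble and shHDAC2.

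**Figure D1:**
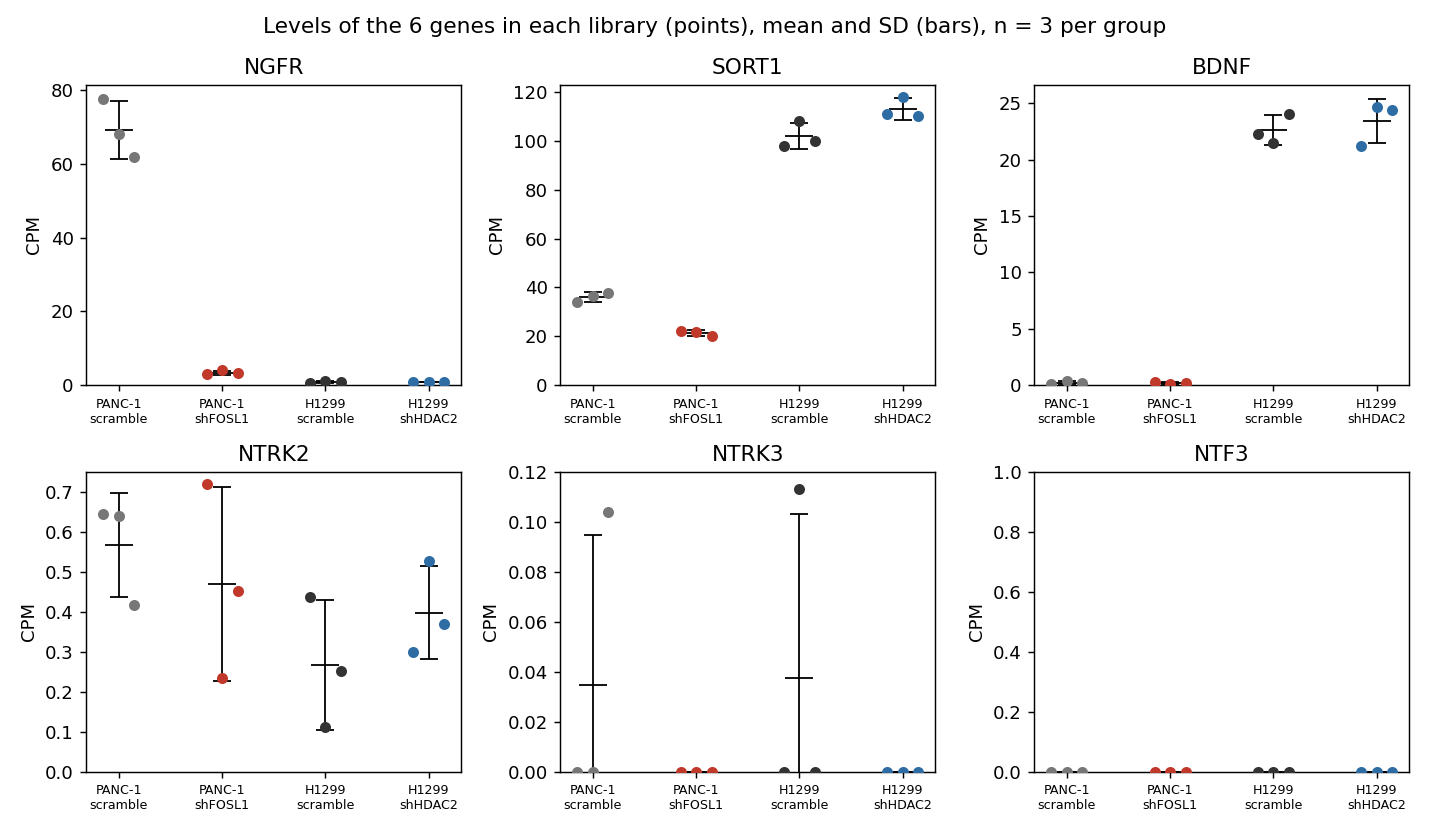
Levels of the 6 genes in CPM (linear axes that start at 0 and differ between panels) in each library, with points for libraries and bars for the mean and SD of 3 libraries per group. NGFR is high in PANC-1 scramble alone, at 61.8 to 77.6 CPM, BDNF is high in both H1299 groups, SORT1 is present in all 4 groups, and NTRK2, NTRK3 and NTF3 are at or near 0.

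The Trk receptors among the members were close to silent. NTRK2, the TrkB receptor of BDNF (chr9:84668375-85095751, plus strand), had counts of 12, 12 and 8 in PANC-1 scramble, 12, 4 and 8 in PANC-1 shFOSL1, 8, 2 and 5 in H1299 scramble and 5, 9 and 7 in H1299 shHDAC2. All neighbouring groups overlapped, and its mean was at most 0.567 CPM ± 0.13 (SD, n = 3, PANC-1 scramble). In the FOSL1 comparison its log2 fold change was -0.30 (SE 0.479, 95% interval -1.28 to 0.69), an interval that spans falls and rises of more than 1.5-fold. Leaving out shFOSL1 replicate 2, which had the lowest of its 3 counts there, moved that value to 0.02. NTRK3, the TrkC receptor (chr15:87859751-88256791, minus strand), had 2 counts in PANC-1 scramble replicate 3, 2 in H1299 scramble replicate 2 and 0 in the 10 other libraries. It was detectable at no level above the limit that a count of 0 allows.

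The ligands split by line. BDNF (ENSG00000176697.19, chr11:27654893-27722058, minus strand) had 409, 382 and 477 counts in H1299 scramble and 356, 422 and 464 in H1299 shHDAC2. In PANC-1 it had 2, 7 and 3 counts in scramble and 4, 1 and 3 in shFOSL1. Every H1299 library lay above every PANC-1 library, and within each line the scramble and knockdown groups overlapped. Mean levels were 22.6 CPM ± 1.32 in H1299 scramble and 0.212 CPM ± 0.141 in PANC-1 scramble (SD, n = 3 each), 104-fold lower in PANC-1 (log2 difference -6.70, SE 0.237, edgeR adjusted p = 7.6e-16). With so few counts in PANC-1 the size was loose, at -7.35 without PANC-1 scramble replicate 2 and -6.39 without replicate 1. In the FOSL1 comparison BDNF had too few counts to be tested. The antisense gene BDNF-AS shares 12.8% of the exon bases of BDNF, and it had 41 to 57 counts in H1299 scramble, 23 to 46 in H1299 shHDAC2 and 1 to 9 in PANC-1. Without a stated strand setting, reads of the overlap cannot be assigned to either gene. NTF3 (chr12:5432108-5521536, plus strand) had 0 counts in all 12 libraries, which allows up to 0.152 to 0.18 CPM per library.

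SORT1 encodes sortilin, a sorting receptor of the trans-Golgi network and the partner of p75 for precursor ligands (ENSG00000134243.12, chr1:109309568-109397918, minus strand). Its counts were 355 or more in all 12 libraries. Counts were 632, 682 and 726 in PANC-1 scramble and 372, 372 and 355 in PANC-1 shFOSL1, or 33.9, 36.3 and 37.8 against 22.3, 21.8 and 20 CPM. The groups did not overlap, and the log2 fold change was -0.78 (SE 0.0916, 95% interval -0.97 to -0.59), or 1.71-fold lower with shFOSL1. In H1299 the counts were 1793, 1926 and 1975 in scramble and 1858, 2017 and 2094 in shHDAC2, or 97.9, 108 and 99.8 against 111, 118 and 110 CPM. No neighbours overlapped in the order H1299 shHDAC2, H1299 scramble, PANC-1 scramble, PANC-1 shFOSL1. SORT1 was 2.85-fold lower in PANC-1 scramble than in H1299 scramble (log2 difference -1.51, SE 0.0841, edgeR adjusted p = 1.3e-12).

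The member with the highest level per kb changed between groups. In PANC-1 scramble it was NGFR, at 16.7 CPM per kb ± 1.93 against 3.95 ± 0.217 for SORT1. In PANC-1 shFOSL1 it was SORT1, at 2.34 CPM per kb ± 0.132 against 0.816 ± 0.137 for NGFR. In H1299 scramble SORT1 led at 11.2 CPM per kb ± 0.62, followed by BDNF at 2.93 ± 0.17, with NGFR at 0.199 ± 0.0435 (SD, n = 3 in each case). In both lines NTRK2, NTRK3 and NTF3 had means of at most 0.0171 CPM per kb.

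In the FOSL1 comparison 3 of the 6 members, NGFR, SORT1 and NTRK2, had enough counts for the fit. The threshold of 0.05 on the adjusted p called 50.9% of all 16345 genes in that fit, with 27.1% lower and 23.8% higher. Because the members were chosen on this comparison, they were not tested in it and no count of members called is given. Without scramble replicate 1, or any other single library, the log2 fold change of NGFR stayed between -4.5 and -4.26 and that of SORT1 between -0.8 and -0.72.

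The HDAC2 comparison was not used to choose the members, and there 0 of the 3 members with enough counts were called, against 22.4% of 16465 genes over the whole fit, 12.1% lower and 10.3% higher. NGFR differed by -0.06 on the log2 scale (SE 0.383, 95% interval -0.84 to 0.72, edgeR adjusted p = 0.935). At 12 to 18 counts per library, this interval does not exclude a change of up to 1.5-fold in either direction. BDNF differed by 0.05 (SE 0.0903, 95% interval -0.14 to 0.23, edgeR adjusted p = 0.767), from 22.6 CPM ± 1.32 in scramble to 23.4 CPM ± 1.91 in shHDAC2. SORT1 was 102 CPM ± 5.66 in scramble and 113 CPM ± 4.4 in shHDAC2, a difference of 0.14 (SE 0.0641, 95% interval 0.01 to 0.27). The SORT1 groups did not overlap, but its unadjusted p of 0.0332 gave an edgeR adjusted p of 0.109. It was the 1 member with an unadjusted p under 0.05, and DESeq2 called 0 members. Leaving out H1299 scramble replicate 2, the highest of its group for SORT1, gave a difference of 0.20 with an edgeR adjusted p of 0.0345.

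Between the lines, BDNF and SORT1 were both tested and both were lower in PANC-1 scramble, against a background of 76.9% of 17619 genes called in either direction. Line and any batch of the line cannot be told apart.

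Of 7 other neurotrophins, Trk receptors and sortilin family receptors listed, 4 had enough counts in PANC-1. All 4 of those tested fell with shFOSL1, beside 27.1% of all genes tested. Their median log2 fold change was -1.50 against -0.02 over all genes tested. Genes such as NTF4 and SORCS2 had at most 12 counts in any shFOSL1 library, so they could enter the fit mainly through the scramble group, and the count of genes that fell supports nothing about the family. NTF4, a TrkB ligand, had 34, 24 and 18 counts in scramble and 10, 9 and 11 in shFOSL1, without overlap (log2 fold change -1.22, SE 0.378, edgeR adjusted p = 0.00911). That call was lost without scramble replicate 1 (-0.91, edgeR adjusted p = 0.0841). The exons of NTF4 share 49.9% of their bases with 3 other genes, and the strand setting of the counting was not given. SORCS2, a sortilin relative, had 21, 20 and 27 counts against 12, 3 and 3 (-1.78, SE 0.467, edgeR adjusted p = 0.00267). Its size depended on shFOSL1 replicate 1, with -2.77 without that library, and leaving out shFOSL1 replicate 3 gave -1.43.

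SORL1, a sorting receptor of the same family, was the well-counted gene of that list. It had 490, 520 and 510 counts in PANC-1 scramble and 205, 301 and 251 in shFOSL1, without overlap, and fell 1.86-fold (log2 fold change -0.89, SE 0.114, edgeR adjusted p = 5.6e-07). SORCS1 had 0 counts in all PANC-1 libraries and at most 1 in H1299, and SORCS3 had 0 counts in all 12 libraries.

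In H1299, 2 of the 7 genes had enough counts and both were called, 1 in each direction, beside 22.4% of all genes tested. SORL1 fell from 83.3 to 72 CPM (-0.22, SE 0.0741, edgeR adjusted p = 0.0338) and SORCS2 rose from 7.87 to 10.3 CPM (0.38, SE 0.124, edgeR adjusted p = 0.0245). Both calls were fragile. The SORL1 call was lost under 6 of 14 alternative settings, with adjusted p up to 0.216, among them leaving out shHDAC2 replicate 1 or 3 or scramble replicate 2 or 3. The SORCS2 call was lost under 4 of 14, with adjusted p up to 0.105, among them leaving out shHDAC2 replicate 2 or 3 or scramble replicate 3.

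**Figure D2:**
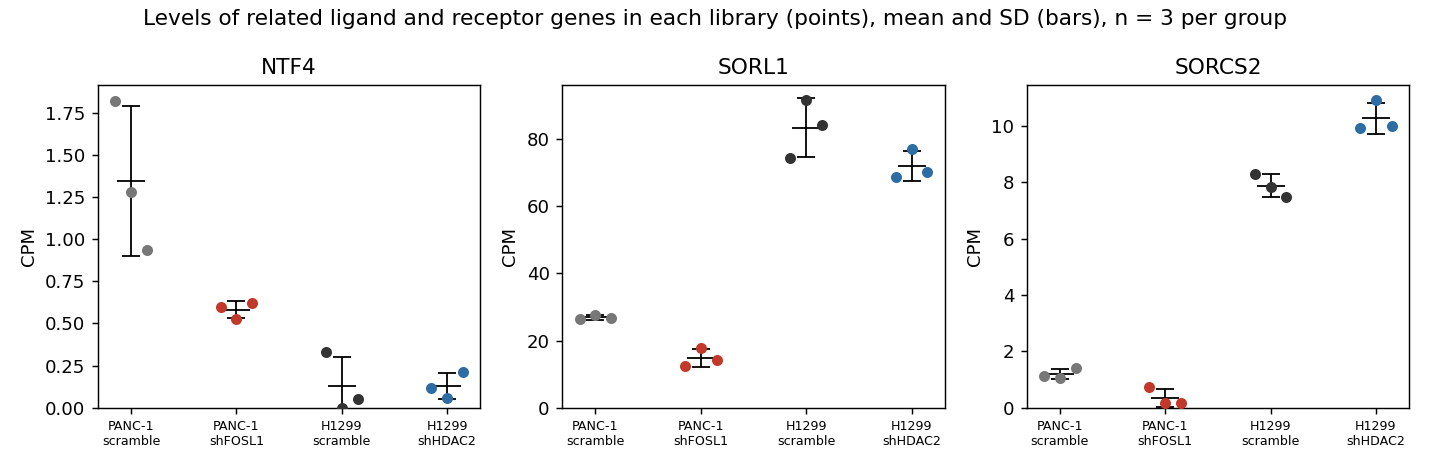
Levels of NTF4, SORL1 and SORCS2 in CPM (linear axes from 0 that differ between panels) in each library, with points for libraries and bars for the mean and SD of 3 libraries per group. NTF4 is highest in PANC-1 scramble, at 0.938 to 1.82 CPM, while SORL1 and SORCS2 are highest in H1299.

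The wider signalling system was described with 8 lists of 105 genes in all, of which 81 had enough counts in PANC-1. With shFOSL1 31 fell, 19 rose and 31 did not pass the test, with a median log2 fold change of -0.11. The share called, 61.7%, compares with 50.9% of all genes tested. The count of genes that rose dropped to 12 without shFOSL1 replicate 1, and 4 of the genes that rose had a log2 fold change over 0.5.

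Of genes that neurotrophins are known to induce, 3 of the 4 tested in PANC-1 fell, with a median of -0.88, beside 27.1% of all genes tested that fell. VGF, a secreted neuropeptide precursor, fell from 253 CPM ± 18.9 to 99.4 CPM ± 8.14 (SD, n = 3 each), a log2 fold change of -1.37 (SE 0.0701, edgeR adjusted p = 5.1e-14). ARC, an immediate early gene of neurons, fell from 3.64 to 0.945 CPM (-1.95, SE 0.297, edgeR adjusted p = 7.0e-06). EGR1, an immediate early transcription factor, fell from 78.4 to 61 CPM (-0.39, SE 0.107, edgeR adjusted p = 0.00433), and that call was lost with DESeq2 (adjusted p = 0.143) and without shFOSL1 replicate 3 (-0.20, edgeR adjusted p = 0.0704). These genes also respond to many other growth factors.

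The TNF receptor superfamily, to which NGFR belongs, had 20 of 28 genes tested in PANC-1. Of these 10 fell, 3 rose and 7 did not pass, with a median of -0.52. Over all genes tested, 27.1% fell and 23.8% rose. The decoy receptor TNFRSF10D, which binds TRAIL without a working death domain, fell 3.65-fold from 18 to 4.99 CPM (-1.87, SE 0.132, edgeR adjusted p = 2.6e-11). The death receptor TNFRSF21 fell 2.01-fold (-1.01, SE 0.0755, edgeR adjusted p = 7.5e-11) and the costimulatory receptor TNFRSF9 fell 2.07-fold at low level (-1.05, SE 0.294, edgeR adjusted p = 0.00449). In the other direction, TNFRSF12A, the receptor of TWEAK, rose 1.68-fold from 77.9 to 133 CPM (0.75, SE 0.0679, edgeR adjusted p = 2.1e-09). TNFRSF1A, the main TNF receptor with a death domain, rose 1.24-fold and the TRAIL death receptor TNFRSF10B rose 1.2-fold. The log2 fold change of NGFR, -4.37, was beyond that of every other member of the superfamily that was tested, down to -1.87, which follows from its choice as the largest fall.

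**Figure D3:**
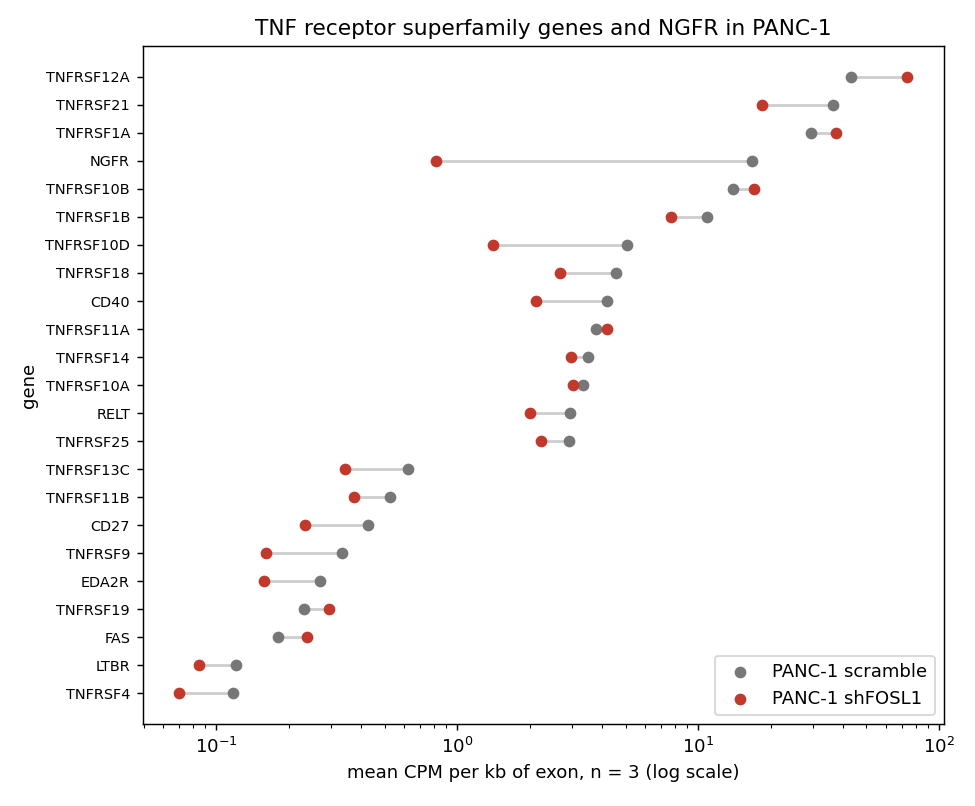
Mean CPM per kb of exon (log scale, n = 3) of NGFR and the TNF receptor superfamily genes with at least 0.1 CPM per kb in either PANC-1 group, grey for scramble and red for shFOSL1, ordered by the scramble level. NGFR moves from 16.7 to 0.816 CPM per kb, the longest line of the plot, while TNFRSF12A, at the top in both groups, moves from 43.3 to 74.

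Co-receptors and intracellular partners of p75, and adaptors of the Trk receptors, showed no common direction with shFOSL1. Over all genes tested, 27.1% fell and 23.8% rose. Of 14 co-receptors and intracellular partners of p75 tested, 3 fell, 4 rose and 7 did not pass, with a median of 0.01. MAGEH1 fell 1.61-fold (-0.69, SE 0.13, edgeR adjusted p = 1.0e-04). MAGED1, also called NRAGE for its binding to p75, fell 1.21-fold (-0.28, SE 0.0615, edgeR adjusted p = 5.2e-04). BEX3 fell 1.15-fold (edgeR adjusted p = 0.0261), a call lost under 7 of 14 alternative settings, with adjusted p up to 0.163. LINGO1, which joins p75 in the Nogo receptor complex, rose 1.4-fold (0.48, SE 0.129, edgeR adjusted p = 0.00305) and KIDINS220, a membrane scaffold of p75 and Trk receptors, rose 1.24-fold. Of 18 Trk adaptors and effectors, 4 fell and 8 rose, with a median of 0.19. IRS2 fell from 68.1 to 34.1 CPM (-1.02, SE 0.0803, edgeR adjusted p = 1.8e-10) while IRS1, the related docking protein, rose from 31.5 to 53.8 CPM (0.75, SE 0.08, edgeR adjusted p = 3.2e-08). The phosphatase PTPN11 (SHP2) fell 1.45-fold and the adaptor CRK rose 1.36-fold.

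Of 8 genes for receptor shedding and gamma-secretase, 1 fell and 2 rose with shFOSL1, beside 27.1% and 23.8% of all genes tested. ADAM17, a protease that sheds p75 and many other receptors, fell 1.39-fold (-0.47, SE 0.0999, edgeR adjusted p = 3.7e-04). PSENEN, a subunit of gamma-secretase, rose 1.25-fold (edgeR adjusted p = 0.0076), a call lost without shFOSL1 replicate 1 (edgeR adjusted p = 0.0539). Of 5 genes for neurotrophin precursor processing tested, 1 fell, the matrix protease MMP7, from 1.48 to 0.853 CPM, a call lost under 9 of 14 alternative settings, with adjusted p up to 0.187, leaving out shFOSL1 replicate 1 or 3 or any scramble replicate among them.

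Among 9 other neurotrophic factor receptors and ligands tested in PANC-1, 5 fell and 2 rose, with a median of -0.24. Over all genes tested, 27.1% fell and 23.8% rose. NRTN, the GDNF family ligand neurturin, fell 2.66-fold from 3.53 to 1.34 CPM (-1.41, SE 0.269, edgeR adjusted p = 1.1e-04). GFRA2, the preferred receptor of neurturin, was under 1 CPM in both groups and fell 3.07-fold. Its call was lost without shFOSL1 replicate 2 (-1.28, edgeR adjusted p = 0.0643). With at most 7 counts in any shFOSL1 library, it could enter the fit mainly through the scramble group. CNTF rose from 0.724 to 1.59 CPM, with overlap between groups (1.11, SE 0.396, edgeR adjusted p = 0.0224). That call was lost without shFOSL1 replicate 1 or 3 or scramble replicate 1, with adjusted p up to 0.125. RET, the receptor tyrosine kinase that this ligand family shares, rose 1.53-fold from 8.06 to 12.6 CPM (0.62, SE 0.128, edgeR adjusted p = 2.9e-04). CNTFR, the receptor subunit for ciliary neurotrophic factor, fell 2.06-fold (-1.04, SE 0.142, edgeR adjusted p = 1.4e-06).

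With shHDAC2 in H1299, 80 genes of the same lists had enough counts, and 18 fell, 10 rose and 52 did not pass the test, with a median log2 fold change of -0.02. The share called was 35%, beside 22.4% of all genes tested. The count of genes that rose was 4 without shHDAC2 replicate 2, 6 without shHDAC2 replicate 3 and 6 without scramble replicate 3. Counting only log2 fold changes over 0.5, 8 fell and 3 rose.

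VGF fell in H1299 too, from 241 CPM ± 24.7 to 143 CPM ± 4.68 (SD, n = 3 each), a log2 fold change of -0.76 (SE 0.0639, edgeR adjusted p = 2.0e-10). ARC went the other way there, from 0.652 to 1.69 CPM (1.38, SE 0.378, edgeR adjusted p = 0.00799), a call lost without shHDAC2 replicate 3 (edgeR adjusted p = 0.0646) or scramble replicate 1 (edgeR adjusted p = 0.0509). Without scramble replicate 2 the ARC value was 2.00. The difference between the knockdowns was not tested for either gene, since the knockdowns differ in both line and target.

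In the TNF receptor superfamily of H1299, 4 of 18 genes tested fell and 3 rose, beside 12.1% and 10.3% of all genes tested. TNFRSF1B fell 2.61-fold from 4.49 to 1.72 CPM (-1.38, SE 0.211, edgeR adjusted p = 1.1e-05) and TNFRSF9 fell 2.55-fold (-1.35, SE 0.186, edgeR adjusted p = 2.3e-06). TNFRSF13C, the receptor of the B cell factor BAFF, rose 2.22-fold from 2.78 to 6.17 CPM (1.15, SE 0.189, edgeR adjusted p = 3.3e-05).

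For the remaining lists in H1299, 3 of 14 partners of p75 fell and 1 rose, and 4 of 17 Trk adaptors and effectors fell and 3 rose. For receptor shedding, 1 of 8 genes fell and 1 rose. Over all genes tested there, 12.1% fell and 10.3% rose. BEX1, a p75-binding protein, fell 1.22-fold (-0.29, SE 0.0721, edgeR adjusted p = 0.00391), and ADAM10, a shedding protease, rose 1.2-fold (0.26, SE 0.0645, edgeR adjusted p = 0.00364). FRS2, the docking protein that binds activated Trk receptors, rose 1.31-fold (0.39, SE 0.0846, edgeR adjusted p = 0.0011), while the adaptor SHC1 fell 1.25-fold (-0.32, SE 0.0608, edgeR adjusted p = 2.4e-04). The protease MMP9, which can cleave neurotrophin precursors, fell 1.78-fold (-0.83, SE 0.156, edgeR adjusted p = 1.8e-04) and was the 1 gene called of 6 in its list. Of 10 other neurotrophic factor receptors and ligands tested, 3 fell and 7 did not pass, and those that fell included IL6ST, the shared receptor gp130, from 149 to 89.6 CPM (-0.74, SE 0.0733, edgeR adjusted p = 5.3e-09) and LIF, a cytokine that signals through it (-0.31, SE 0.0758, edgeR adjusted p = 0.00292).

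**Figure D4:**
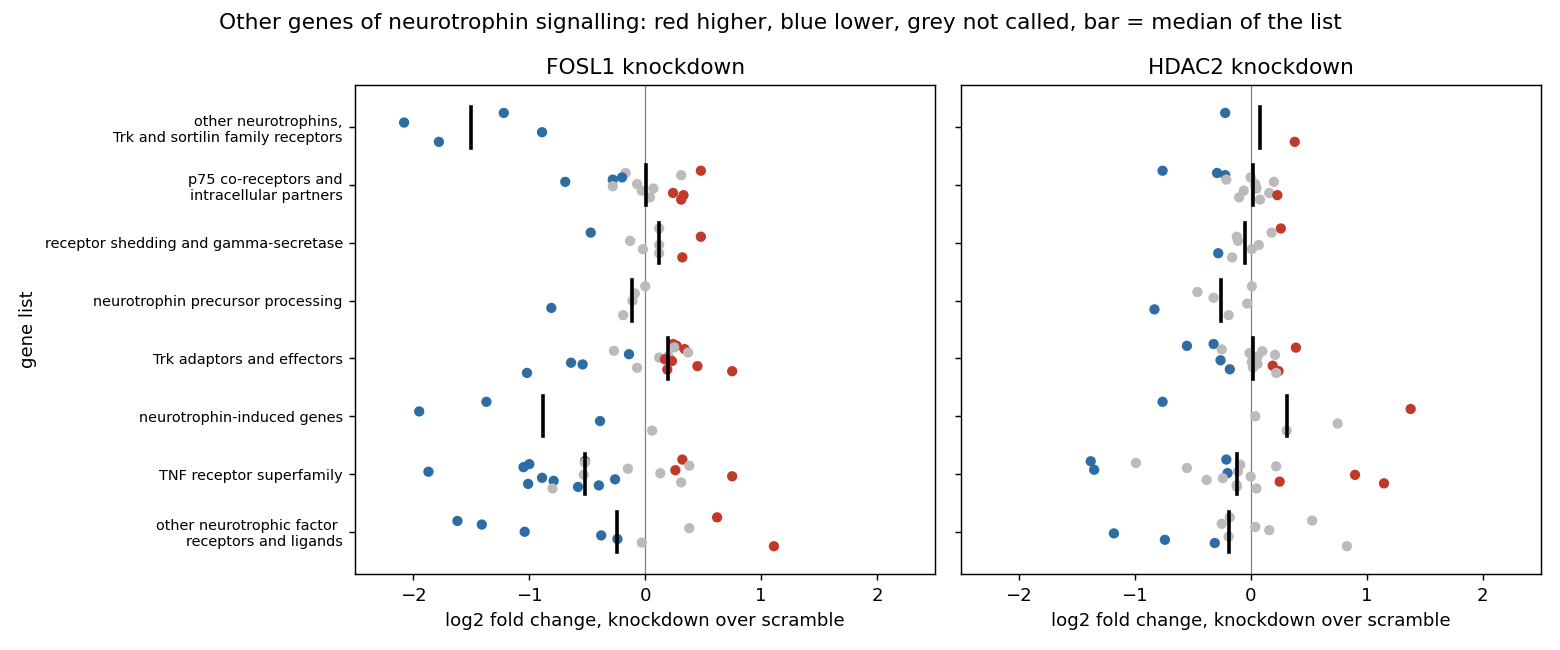
Log2 fold change of knockdown over scramble for each tested gene of the 8 lists (points), in PANC-1 with shFOSL1 on the left and H1299 with shHDAC2 on the right, red for higher, blue for lower and grey for not called at an adjusted p of 0.05, with a black bar at each list's median. The list of other neurotrophins and Trk and sortilin family receptors has its median at -1.50 on the left, from 4 genes, and at 0.08 on the right, from 2.

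NGFR is also a marker of Schwann cells, neural crest and activated stellate cells, so markers of such cells were read beside it. Of the 7 Schwann and neural crest markers, 2 reached 1 CPM in PANC-1, and SOX10 and S100B had 0 counts in all 6 PANC-1 libraries. The list summed to 14.6 to 16.6 CPM in scramble and 6.51 to 9.64 CPM in shFOSL1, mostly ERBB3, which fell from 12.9 to 4.81 CPM. The 8 fibroblast and stellate markers summed to 234 to 293 CPM in scramble and 87.2 to 94.8 CPM in shFOSL1, of which COL1A1 made up 249 and 78.2 CPM on average. COL1A2, at 0.565 and 0.117 CPM, and DCN, at 0.0174 and 0 CPM, were near or at 0, and PDGFRB fell from 3.87 to 0.578 CPM. COL3A1 went the other way, from 8.76 to 11.5 CPM (0.37, SE 0.13, edgeR adjusted p = 0.0214), and ACTA2, at 0.938 and 1.01 CPM, did not pass the test. Of the 6 neuron markers 5 were tested and 3 fell, with a median of -1.59, beside 27.1% of all genes tested that fell. These were NEFL from 0.884 to 0.0572 CPM, SNAP25 from 1.81 to 0.488 CPM and TUBB3 from 14.7 to 4.96 CPM. In any shFOSL1 library NEFL had at most 2 counts and SNAP25 at most 10. Such genes could enter the fit mainly through the scramble group, so the count and median support nothing about neuron markers as a set. The list of neuron markers summed to 48.9 to 60 CPM in scramble and 47.5 to 49.9 CPM in shFOSL1. Most of it was SYP at 37.1 and 42.6 CPM, which did not pass the test. The 7 leukocyte and endothelial markers summed to at most 1.44 CPM in PANC-1. The 7 epithelial markers summed to 2144 to 2733 CPM in scramble and 1606 to 1647 CPM in shFOSL1, and all 7 stayed above 1 CPM. With shFOSL1 6 of the 7 were lower and 1, KRT19, higher, beside 27.1% and 23.8% of all genes tested. The part of these genes, of the mitochondrial share and of scramble replicate 1 in the NGFR values was not tested, beyond the range without each library given above.

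The genes whose pattern over the 12 libraries was most like that of NGFR were named by Pearson correlation of log2 CPM, over the 11563 genes that averaged 5 CPM or more. They were DUSP1 (r = 0.997), a phosphatase that switches off MAP kinases, NR1D1 (0.996), the clock repressor REV-ERB alpha, SFRP1 (0.994), a secreted Wnt antagonist, CD55 (0.992), which protects cells from complement, and SEMA7A (0.991), a membrane-anchored semaphorin. Each had the order PANC-1 scramble, PANC-1 shFOSL1, H1299, as in DUSP1 with 211, 55.2, 27.4 and 30.9 CPM in PANC-1 scramble, PANC-1 shFOSL1, H1299 scramble and H1299 shHDAC2. SFRP1 had 65.6 CPM ± 3.14 in PANC-1 scramble and 15.7 CPM ± 0.952 in shFOSL1, against 9.54 CPM ± 0.655 in H1299 scramble (SD, n = 3 each). NR1D1 had 68.6, 19.8, 11.2 and 10.8 CPM in the same 4 groups. The libraries fall into the 4 groups and share their depth between genes, so r describes mainly the differences between groups, and ranking by Spearman's rho instead kept 0 of these 5 genes.

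**Figure D5:**
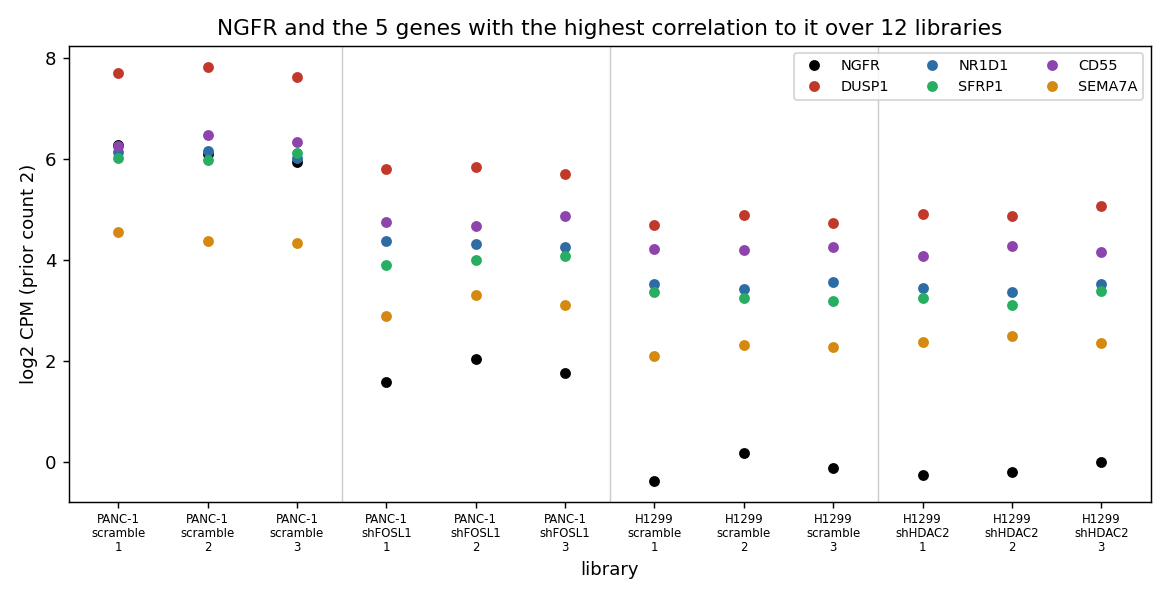
Log2 CPM (prior count 2) of NGFR in black and of the 5 genes with the highest Pearson correlation to it, for each of the 12 libraries on the horizontal axis, with grey lines between groups. All 6 genes are highest in the PANC-1 scramble libraries, and NGFR spans the widest range, from 6.28 in PANC-1 scramble replicate 1 to -0.38 in H1299 scramble replicate 1.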

How the data were processed

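Per the submitters' processing notes, the authors used cutadapt, the aligner STAR 2.7.2b with the build GRCh38, and featureCounts 2.0.1 for counting per gene, after preparation with the NEBNext Ultra RNA kit. The deposited values are whole-number counts per gene, not normalized, for 60668 genes in 12 libraries. The strand setting and the annotation release are not given in the sources used here. No library was left out, and groups follow the sample labels.

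Each knockdown was compared with scramble of its own line, and both scramble groups with each other, 3 against 3, with the quasi-likelihood test of edgeR 4.0.16 (R 4.3.3) after filterByExpr and TMM scaling, with Benjamini-Hochberg adjustment over all genes tested and a threshold of 0.05. Levels are CPM with TMM-scaled totals, per kilobase of GENCODE 44 exons where genes are compared. GENCODE 44 held 60340 of the gene identifiers. The script was tested on simulated data.

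The members, lists and tests were chosen with earlier results of these data known. Named genes are the members, the targeted genes, 7 further family genes, the 5 genes most like NGFR, antisense genes and, per list, comparison and direction, up to 3 called genes with the largest fold change, of which the text gives the better measured, and some listed genes are not reported here by name. HSPA6 and the markers named beside NGFR were chosen after their values were seen. Common biological coefficients of variation were 0.0687 in PANC-1, 0.0609 in H1299 and 0.0818 between lines. Within lines, libraries with the same replicate number did not deviate together (r between -0.047 and 0.033), so no block was used. Between the scramble groups of both lines, r was 0.17, 0.039 and 0.055 for replicates 1, 2 and 3. Pairs with different numbers had r from -0.11 to 0.058 there, and that comparison had no block either. Alternatives were DESeq2 1.42.0, RLE and upper quartile scaling, other filters, a fit of all libraries, the replicate block, leaving out abundant and mitochondrially encoded genes, and leaving out each library.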

Additional observations from a re-analysis of the deposited data

How the results depend on the processing

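The fall of NGFR with shFOSL1 (log2 fold change -4.37) was the same in direction and size under all 14 alternatives, from -4.5 to -4.26. With each library left out in turn, the NTRK2 value of that comparison ranged from -0.72 to 0.02, the count of listed genes that rose from 12 to 21 and that of genes that fell from 25 to 28. With a log2 fold change over 0.5 also required, 4 genes rose. In the HDAC2 comparison, leaving out each library gave 0 to 1 members called, NGFR values from -0.2 to 0.11 and 4 to 11 listed genes that rose, and the fold threshold left 8 genes that fell and 3 that rose. Between the lines, requiring 10 counts in every library removed BDNF and left 1 member called in place of 2, and leaving out each library gave 2 to 3. The most NGFR-like genes by Spearman's rho shared 0 with the 5 by Pearson's r. Adding the replicate block to the model gave -4.37 for NGFR, 29 listed genes that fell and 21 that rose with shFOSL1, and 0 members, 18 and 11 listed genes with shHDAC2. The block ended the call of MMP7 (adjusted p = 0.0531). Of 942 results and settings for single genes, 859 kept their direction and side of the threshold. The cause of the changes was not tested. Depth limits NTRK2, NTRK3, NTF3, and BDNF in PANC-1.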
